A study of Rattus norvegicus with 6 samples.

Results

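The tubulin-folding cofactor genes comprise Tbca, Tbcb, Tbcc, Tbcd and Tbce together with the Tbce-like gene Tbcel, 6 genes in all. They were selected by symbol from the authors' annotated peak table, which holds peaks of the α1ACT library precipitated with the antibody 1804 that were not shared with empty-vector cells. They were chosen after the site of highest signal in the α1ACT peak lists had been found inside Tbcd. The table assigns each peak to a gene and names 14390 genes in all. It named 5 of the 6 members, all but Tbce, where 74.7% of 18539 protein-coding genes had an assigned peak, and it assigned the members 30 of its 159452 peaks. The positions and signals given here are those that led to this choice of genes or come from the same libraries. They are therefore descriptions, and no test was made of them.

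The peaks come from chromatin immunoprecipitation and sequencing (ChIP-seq) of PC12 cells at passages 18 to 20, crosslinked with 1% formaldehyde for 10 min. PC12 is a rat line derived from a pheochromocytoma, a tumour of neural crest descent. Cells with stable expression of human α1ACT, titled Q11 in the labels, gave a library precipitated with the anti-FLAG antibody M2, a library precipitated with an antibody labelled 1804, and an input, which was not used here. Cells with stable expression of the pCDNA3 vector, titled EV and here called empty-vector cells, gave the same 3 kinds of library. α1ACT is a transcription factor made from the transcript of the calcium channel gene CACNA1A, and the comparison of the lines asks where it lies on chromatin. Nothing in the labels says whether a line was a clone or a pool, or what 1804 recognises, and the series' design text speaks of tissues where the sample labels name PC12 cells. Each group holds 1 library, so a difference between groups has no replicate check. Peak lists measure no expression, so the cell type on the label could not be checked against its markers. Read depth is unknown.

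Alpha and beta tubulin fold inside the cytosolic chaperonin CCT and must then be joined into the heterodimer from which microtubules are built. The cofactors carry out that last step. TBCA takes up folded beta tubulin and TBCB folded alpha tubulin, TBCD and TBCE replace them as larger scaffolds, and TBCC enters the joint complex and triggers the GTP hydrolysis that frees the finished heterodimer. TBCD also binds the small GTPase ARL2, and TBCEL, a relative of TBCE, destabilises tubulin. Neurons depend on this route for their axons: a mutation of Tbce causes a motor neuron disease in the mouse, and mutations of TBCD cause an early-onset encephalopathy in humans.

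The promoters of 4 members are shown: Tbcd, Tbcb and Tbcc had an assigned peak within 1000 bp of the transcription start site (TSS), and Tbcel did not. Tbca, which also had none, is not shown. The peaks assigned to these 3 genes lay outside the stretches shown, going by distance to the TSS on build rn5. By their nearer edge they were 42 bp downstream of the TSS in Tbcd, 419 bp downstream in Tbcb and 821 bp upstream in Tbcc. A peak assigned to the neighbouring gene Polr2i spanned a Tbcb TSS on rn5. By that distance it reached the end of the Tbcb stretch. Positions were not mapped between builds. The sequences are RefSeq's on build GRCr8, the 250 bases before the start, 5′ to 3′ in the direction of transcription. They lie at chr10:107215417-107215666 on the plus strand for Tbcd, chr1:94610950-94611199 on the minus strand for Tbcb, chr9:21597661-21597910 on the minus strand for Tbcc and chr8:51751561-51751810 on the minus strand for Tbcel. Capitals mark matches, on either strand, to the letters searched for, which are given after the sequences.
Tbcd: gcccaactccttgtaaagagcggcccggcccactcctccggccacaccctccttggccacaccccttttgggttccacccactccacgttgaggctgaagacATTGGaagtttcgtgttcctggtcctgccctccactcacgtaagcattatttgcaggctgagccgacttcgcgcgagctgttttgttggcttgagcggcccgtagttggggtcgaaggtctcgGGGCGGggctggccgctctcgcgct
Tbcb: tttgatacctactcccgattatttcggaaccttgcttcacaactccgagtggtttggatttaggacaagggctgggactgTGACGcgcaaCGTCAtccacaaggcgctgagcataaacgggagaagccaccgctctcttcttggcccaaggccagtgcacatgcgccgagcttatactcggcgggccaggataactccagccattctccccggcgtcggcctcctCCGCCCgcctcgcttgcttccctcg
Tbcc: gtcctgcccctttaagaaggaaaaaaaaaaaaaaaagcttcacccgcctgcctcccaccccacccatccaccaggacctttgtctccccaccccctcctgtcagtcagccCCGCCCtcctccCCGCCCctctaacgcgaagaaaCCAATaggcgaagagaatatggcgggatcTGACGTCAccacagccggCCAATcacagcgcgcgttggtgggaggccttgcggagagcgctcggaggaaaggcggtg
Tbcel: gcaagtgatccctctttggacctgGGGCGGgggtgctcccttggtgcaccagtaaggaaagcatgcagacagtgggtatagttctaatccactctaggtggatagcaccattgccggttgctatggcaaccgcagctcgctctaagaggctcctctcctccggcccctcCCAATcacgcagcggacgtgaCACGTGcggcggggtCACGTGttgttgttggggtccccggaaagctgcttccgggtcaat

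The 6 motifs were searched on both strands of the RefSeq window, which runs from 250 bases before the start to 50 after it; windows of 5 members were in the table. CCAAT was found in 4 of the 5 members and in 37.5% of all 33469 windows. GGGCGG, the GC box, was found in the same 4 members, Tbcb, Tbcc, Tbcd and Tbcel, and in 33.1% of all windows. In Tbcd and in Tbcb the GC box lay 25 to 20 bases before the start, on opposite strands. TGACG, the core of the cyclic AMP response element, occurred at 2 places each in Tbcb and Tbcc, in none of the other 3 members and in 21.2% of all windows. In Tbcc its matches on both strands overlap. CACGTG, an E-box, occurred at 2 places in Tbcel, in no other member and in 6.42% of windows. TATAAA and TGANTCA, an AP-1 motif, were found in none of the 5. Both CCAAT matches of Tbcb lay in the 50 bases after the start and are outside the stretch shown. GC content of the window was 61.0% in Tbcd, 58.7% in Tbcb, 60.7% in Tbcc, 56.3% in Tbca and 61.7% in Tbcel, against a median of 51.7% over all windows. Each match is a description of letters and not a site of binding.

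Tbcd encodes the scaffold for beta tubulin and is the longest of the cofactor genes. On build rn5, which all positions from here on use, it (gene ID 100361417) runs on the plus strand of chromosome 10 from 110229296 to 110384468, a span of 155 kb. The site of highest signal in either α1ACT list lay inside it, from 110277977 to 110278032, in intron 13 of 38 and 48.7 kb downstream of the TSS. Its signal, the authors' own value per peak, was 371 in α1ACT cells with M2. No peak lay there in empty-vector cells with M2. With 1804 the signal was 899 in α1ACT cells, and again no peak lay there in empty-vector cells. The site was thus listed with both antibodies in α1ACT cells and with neither in empty-vector cells, and the same 56 bases were listed with both antibodies.

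The Tbcd site stood at the top of both α1ACT lists by different margins. In the M2 list, which held 81 peaks with a median signal of 115, the next peak had a signal of 363, so that the Tbcd site exceeded it 1.02-fold. Among the 161730 peaks of the 1804 list, whose median was 3.03, the next had 739, a ratio of 1.22. The sources used here do not say how signals of separate libraries were scaled, so ranks are read within a list. The −log10 q-value of the site was 2.07 with M2 and 3.89 with 1804. In each list that was the highest value given, shared by 59 of the M2 peaks and 11673 of the 1804 peaks, so the q-values do not separate the site from many others.

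No empty-vector peak lay inside this gene or within 200 kb on either side. The nearest empty-vector M2 peak on chromosome 10 was 514 kb from the site, with a signal of 49.6. With 1804 the closest peak in those cells was at 1156 kb and had a signal of 63.7. In α1ACT cells the nearest other M2 peak was further off, at 11843 kb. These lists are short, so the distances are not read as a feature of the Tbcd locus. None of 244 empty-vector M2 peaks lay inside a cofactor gene, which allows a share of up to 1.23% of that list, and none of 272 empty-vector 1804 peaks did, which allows up to 1.10%. Few genes of the table held an empty-vector peak at all, 0.153% with M2 and 0.208% with 1804, so the absence from the cofactor genes as a group is near that background. These limits are those of 3 counts and cover counting error only.

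What sets the Tbcd site apart from the other strong sites of α1ACT cells is its absence from the empty-vector lists. Of the 81 α1ACT M2 peaks, 73 overlapped an α1ACT 1804 peak, and 72 of those 73 also overlapped an empty-vector peak. The Tbcd site was the remaining one. Outside the empty-vector lists there were 8 α1ACT M2 peaks, the Tbcd site and 7 on the mitochondrial genome. In α1ACT cells the ratio of 1804 to M2 signal was 2.42 at the Tbcd site, number 10 of the 73, where the median ratio was 1.92 and the range 0.916 to 4.38. The start of the peak was the same in both lists at 32 of the 73 sites, Tbcd among them, and differed by at most 24 bp at the others.

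**Figure D1:**
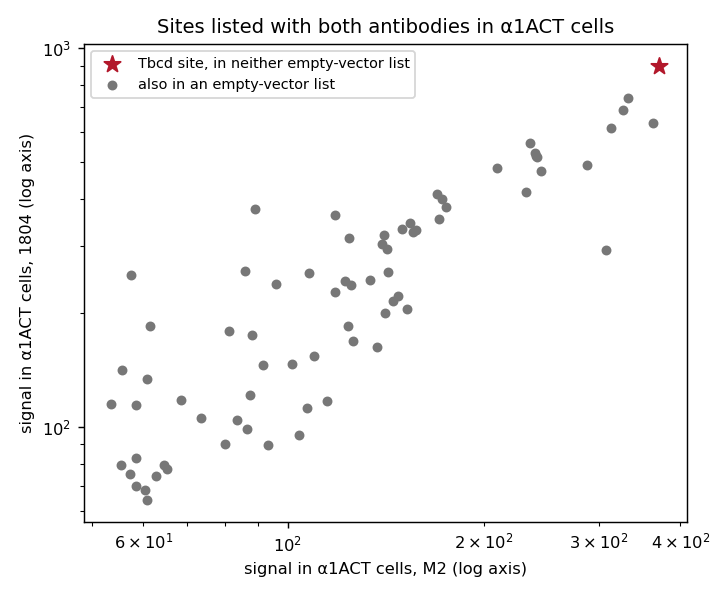
Signal of the 73 sites listed with both M2 and 1804 in α1ACT cells, with 1 point for each site, the M2 signal on the horizontal axis and the 1804 signal on the vertical axis, both authors' values on log axes. The Tbcd site (star) has the highest signal on both axes, 371 and 899, and the other 72 sites (grey) are also in an empty-vector list.

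The other strong sites, like the Tbcd site, stood alone within 1 kb. Every peak of the 4 lists is 56 bp wide, so the lists hold no information on peak shape. Of the 10 highest peaks of the α1ACT 1804 list, 0 had another peak within 1 kb, and the gap to the nearest other peak ran from 4.64 to 49.8 kb. At the Tbcd site that gap was 11.5 kb, and the neighbour had a signal of 2.23. Between neighbouring peaks of the whole α1ACT 1804 list the median gap was 2.92 kb. The share of all its peaks without another within 1 kb was not counted. Within 100 kb of the site lay 16 other peaks, where the 10 sites had 6 to 35. All 10 were also in the α1ACT M2 list, and 9 of the 10 were in an empty-vector list.

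Measured over whole genes, the same pattern was found in Tbcd alone. This restates the site and is no separate result. The Tbcd site was the 1 α1ACT M2 peak on the chromosomes outside the empty-vector lists, and the genes were chosen because of it. A span that held a peak of the α1ACT M2 list was found for 13 of the 14390 genes of the annotated table (0.0903%). All 13 also held an α1ACT 1804 peak, and 12 of them held peaks of both empty-vector lists. Tbcd was the gene with a peak in both α1ACT lists and in no empty-vector list (1 of 14390, 0.00695%), so no other gene had its pattern over the 4 lists. The genes that came nearest agreed in 3 of the 4 lists. They were 9132 genes with a peak in the α1ACT 1804 list and in no other, and none is named, since they have no M2 signal to rank them by.

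Besides this site, the Tbcd gene held a strong peak at its start. It lay from 110229338 to 110229393, 97 bp from the TSS by the authors' measure and 42 bp by its nearer edge, with a signal of 13.2 in the α1ACT 1804 list. That was above 99.8% of the annotated peaks. Of 6219 genes with an assigned peak within 1000 bp of the TSS, 158 had one of higher signal. No other list had a peak there. Listed signals began at 14.0 in the empty-vector 1804 list and at 19.0 in the empty-vector M2 list, and 99.8% of all annotated peaks had a value under 14.0, as did 29 of the 30 assigned to the cofactor genes. With the scale between libraries not stated, the lists do not show whether these peaks differ between the lines.

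The rest of the gene held further peaks of the α1ACT 1804 list, with signals near the middle of the table. Counting every peak inside the span, whichever gene it was assigned to, Tbcd held 13, of which the authors' table assigned 9 to Tbcd and 4 to its neighbour B3gntl1. These 4 lay 121 to 139 kb downstream of the Tbcd TSS, in its introns, with signals of 4.23, 3.86, 3.18 and 3.18. Leaving out the site of highest signal and the peak at the start, the other 11 had a median signal of 3.18 and a range of 2.01 to 6.09, and 8 of them were above the table's median of 3.02. The highest of them, in intron 14 of 38 from 110317829 to 110317884, was above 94.3% of the annotated peaks. The lowest, in intron 7 of 38 from 110259168 to 110259223, was above 0.310% of them.

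The span of Tbcd held more listed peaks for its length than most genes of like length did. It had 8.38 peaks per 100 kb, where the 959 genes of the annotated table with a span of 100 to 200 kb had a median of 3.16 and an interquartile range of 1.75 to 5.39. Of these genes, 88.1% had fewer peaks per 100 kb than Tbcd. The 13 peaks come from 1 library, and the table holds only genes that were assigned a peak.

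Most genes on either side of Tbcd also had a peak at their start. Within 200 kb lay 8 genes with a row in the annotated table, and 7 of them (87.5%) had a peak within 1000 bp of the TSS, against 43.2% of all genes of the table. In 5 of the 8 that peak was in the upper 10% of the table by signal, against 15.1% of protein-coding genes. That background also takes in genes with no assigned peak, while the 8 were taken from the table. The share over the genes of the table was not counted. All 5 peaks were below the 13.2 of the Tbcd start. The highest belonged to Rab40b, a small GTPase gene, with a signal of 9.13, and to Foxk2, a forkhead transcription factor gene, with 9.08. Narf had 8.18, Metrnl, the gene of a secreted factor, 7.86, and Wdr45b, an autophagy gene, 7.34. Nearest to Tbcd were B3gntl1, whose span begins 371 bp beyond its end and whose TSS peak had a signal of 3.72, and Fn3k, a fructosamine kinase gene that ends 1499 bp before its start and whose TSS peak had 3.18. The related gene Fn3krp had an assigned peak of 4.49 and none within 1000 bp of the TSS. In the whole region of 555 kb, α1ACT cells had 1 peak with M2 and empty-vector cells 0; with 1804, α1ACT cells had 40 and empty-vector cells 0.

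**Figure D2:**
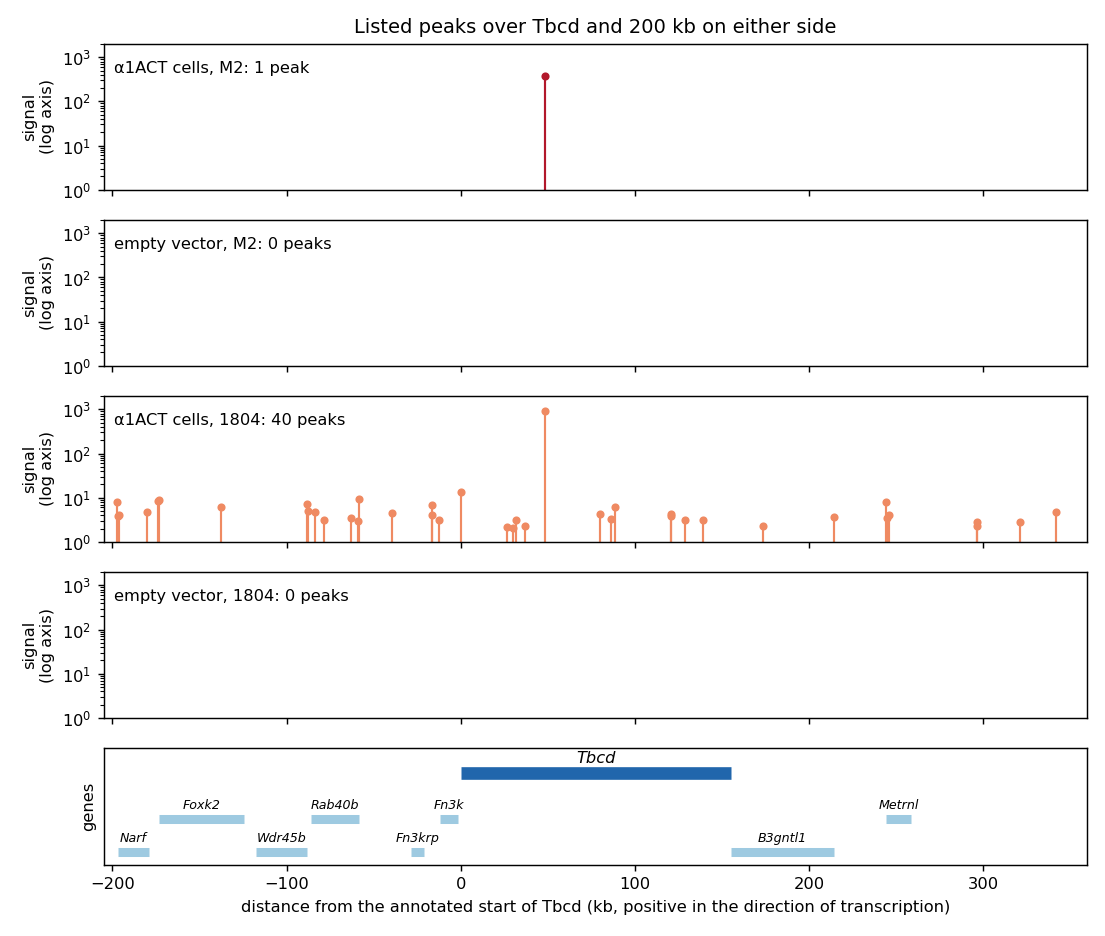
Peaks listed over Tbcd and 200 kb on either side, plotted as signal (authors' value, log axis) against distance from the annotated Tbcd start in kb, with 1 panel for each of the 4 peak lists and the genes of the annotated table below. The site 48.7 kb downstream of the start is the 1 M2 peak of α1ACT cells and towers over the other 39 α1ACT 1804 peaks, while both empty-vector panels hold 0 peaks.

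Tbcb, whose product takes up alpha tubulin, had a peak close to its start, but at an uncertain place. The annotated table gives the same Tbcb transcript (gene ID 292777) at 2 loci of chromosome 1, on the minus strand from 89838342 to 89844191 and on the plus strand from 92179817 to 92185666, 2.34 Mb apart and each 5.85 kb long. Clip3, Ovol3, Polr2i and RGD1562079 were likewise named within 100 kb of both loci. Of 14555 transcripts in the table, 283 (1.94%) were placed at more than 1 locus. The RefSeq tables of GRCr8 hold Tbcb at a single locus, on the minus strand of the same chromosome. Reads from 2 copies can be shared or dropped, and how they were counted is not given in the sources used here, so the division of peaks between the copies is uncertain.

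At the plus-strand locus the assigned peak, from 92180236 to 92180291, lay 474 bp from the Tbcb TSS with a signal of 5.65, above 92.0% of the annotated peaks. Of the 6219 genes with a peak close to the TSS, 2506 had a higher one. By position, 3 peaks lay within 1000 bp of the Tbcb TSS at this locus. The RNA polymerase II subunit gene Polr2i starts 27 bp away on the other strand and was assigned the other 2. These had signals of 2.34, for the peak that spans the Tbcb TSS itself, and 3.41, for one 293 bp upstream. At the minus-strand locus no peak lay within 1000 bp of the TSS. Its assigned peak, from 89841882 to 89841937, was 2254 bp downstream with a signal of 3.98. The remaining Tbcb peak, with a signal of 3.86, lay 29.4 kb from the TSS in an intron of Pepd, a dipeptidase gene.

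Tbcc, the gene of the cofactor that triggers GTP hydrolysis, was assigned a single peak. The gene (gene ID 316221) lies on the minus strand of chromosome 9 from 15314054 to 15315205 and is 1.15 kb long. Its peak, from 15316026 to 15316081, was 821 bp upstream of the TSS and had a signal of 7.70, above 97.7% of the annotated peaks. Of the 6219 genes with a peak close to the TSS, 1241 had a higher one. The gene itself held none.

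Tbca and Tbcel had their peaks away from the start. Tbca, whose product takes up beta tubulin (gene ID 366995), lies on the plus strand of chromosome 2 from 43661384 to 43671792. Its 10 assigned peaks all lay outside the gene, 9 of them 11.8 to 218 kb upstream and 1 downstream of its end. Their median signal was 3.06 and their range 2.12 to 5.87, and the highest was the nearest of the upstream ones, from 43649628 to 43649683. Tbcel (gene ID 315591) lies on the minus strand of chromosome 8 from 45168897 to 45224997. Of its 7 peaks, the highest, from 45229505 to 45229560 with a signal of 7.24, lay 4508 bp upstream of the TSS and was above 97.0% of the annotated peaks. A pair lay in its own intron 7 of 7, with signals of 2.80 and 3.72, and 3 lay in introns of Grik4, a kainate receptor gene, 114 to 170 kb upstream of the Tbcel TSS, with 2.43 to 3.18. The remaining peak, 16.6 kb upstream, had 3.85.

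No peak was assigned to Tbce, the gene of the alpha tubulin scaffold and the cofactor whose mutation affects motor neurons in the mouse. By the gene order of GRCr8 it lies between Ggps1, an isoprenoid synthesis gene, and B3galnt2, a glycosyltransferase gene. On rn5 the stretch between these neighbours, chromosome 17 from 51662194 to 51721960, is 59.8 kb long. It held 0 peaks in all 4 lists. The α1ACT 1804 list had no peak over 101 kb there. This was longer than 97.3% of the gaps between its neighbouring peaks, whose median was 2.92 kb. The gap encloses the empty stretch of 59.8 kb, so its length is no separate result. Tbce itself was not located on rn5, and whether that build holds it in this stretch was not tested. The neighbours themselves had peaks at their starts, Ggps1 with a signal of 5.56 and B3galnt2 with 3.65.

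Set side by side, 3 of the 6 cofactor genes had an assigned peak within 1000 bp of the TSS: Tbcd, Tbcc and Tbcb, in order of signal. That is 50.0% (exact Clopper-Pearson 95% interval 11.8 to 88.2, counting error only), against a background of 32.9% of 18539 protein-coding genes and 43.2% of the 14390 genes of the table. Tbcb counts only through its plus-strand locus, since no peak lay within 1000 bp of the TSS at its minus-strand locus. A peak close to the TSS and in the upper 10% of the table by signal was found for 3 of the 6. The share over protein-coding genes was 15.1%. Of the 6096 protein-coding genes with any peak close to the TSS, 2791 had one in the upper 10%. By class, 14 of the 30 assigned peaks were intronic (46.7%, against 16.2% of all annotated peaks), 11 intergenic (36.7%, against 74.6%), 4 in promoters (13.3%, against 7.65%) and 1 just downstream of a gene. Tbcd, the gene that led to this choice of members, gave 8 of the 14 intronic peaks. Others lay in introns of Pepd and Grik4, which are not members. Inside a gene span, 3 members, Tbcd, Tbcb and Tbcel, held an α1ACT 1804 peak, as did 63.7% of the genes of the table.

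**Figure D3:**
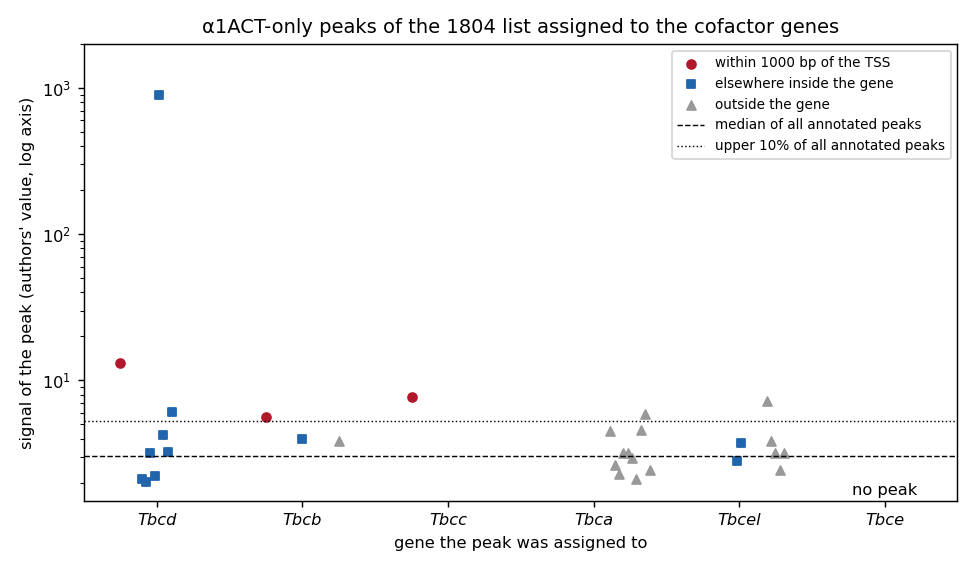
Signal (authors' value, log axis) of each of the 30 peaks assigned to the cofactor genes in the α1ACT 1804 list, by gene and by place, with the median (dashed, 3.02) and the upper 10% limit (dotted, 5.28) of all annotated peaks. The Tbcd site at 899 stands 68.0-fold above the next, the peak at the Tbcd start, Tbca has no peak inside the gene, and Tbce has none assigned.

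Genes that work with the cofactors were listed by role, and 24 of 51 had an assigned peak within 1000 bp of the TSS (47.1%), against the same backgrounds of 32.9% and 43.2%. Among the substrates, 5 of 8 beta tubulin genes had one, led by Tubb2a, a neuronal isotype, with a signal of 14.2 on chromosome 17 from 33386461 to 33386516, and by Tubb6 with 7.82. Of 7 alpha tubulin genes 3 did, led by Tuba1a, the main isotype of developing neurons, with 13.1, and by Tuba4a with 5.03. The table places Tuba1a and Tuba1c on other chromosomes than the GRCr8 gene table does. Tubulin genes form a family with near-identical copies, so these peaks are uncertain, and on the expected chromosome 1 of the 7 alpha tubulin genes had a peak. The Tubb2a and Tuba1a signals stood close to the 13.2 of the Tbcd start.

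Upstream of the cofactors, 6 of 8 CCT chaperonin genes had a peak close to the TSS (75.0%, 34.9 to 96.8), led by Tcp1 with a signal of 7.60 and Cct4 with 7.30, both spanning the TSS. Prefoldin, which hands nascent tubulin to CCT, had 1 of 6, Pfdn1 with 2.62. Arl2, the GTPase that binds TBCD, had a peak of 7.84, 336 bp upstream of its TSS, and was the 1 of 5 genes in its list to have one. Among genes with a CAP-Gly domain, the tubulin-tail binding domain that TBCB and TBCE carry, 3 of 8 had one, led by the kinesin gene Kif13b with 8.48 and the microtubule plus-end gene Clip1 with 5.02. Of the other tubulin and nucleation genes 5 of 9 did, led by Tubgcp3 with 5.72 and the gamma tubulin gene Tubg1 with 5.58. Over all genes with a peak close to the TSS the median of the highest signal was 4.92.

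**Figure D4:**
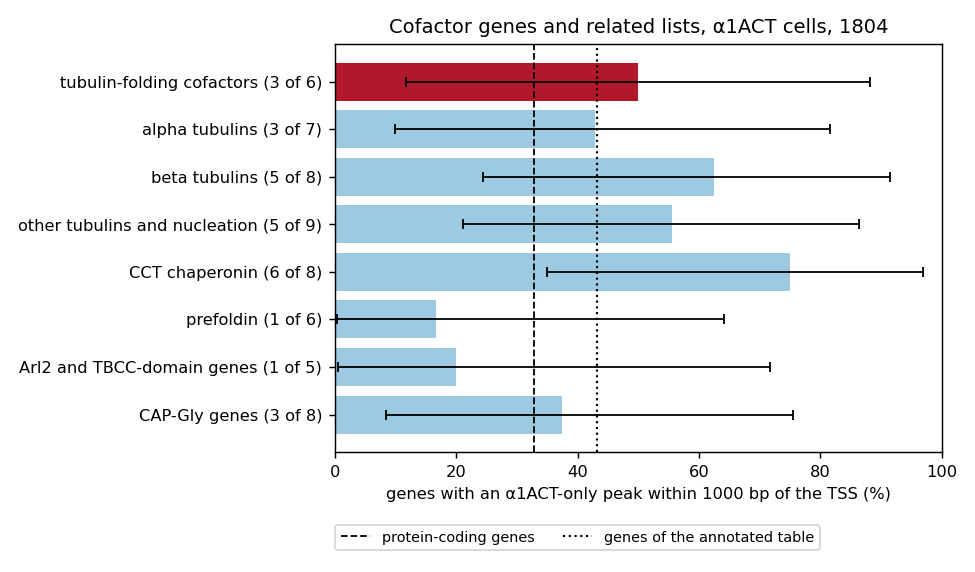
Share of genes with an assigned peak close to the TSS (bars, in %, within 1000 bp, with exact 95% intervals for counting error) in the α1ACT 1804 list, for the 6 cofactor genes (red) and 7 related lists (blue). The dashed line is the 32.9% of protein-coding genes and the dotted line the 43.2% of genes in the annotated table; the cofactor bar stands at 50.0% and the CCT bar at 75.0%.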

How the data were processed

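The 4 peak lists of precipitated libraries and 1 annotated table of the series were used, on build rn5 per the submitters' processing notes. Those notes also name BWA 0.7.5a, FastQC 0.11.2, HOMER, ChIPseeker and DiffBind, with no role or order. The peak caller's settings, and whether it used the inputs, were not given in the sources used here. For each peak, the signal is the value the authors deposited, in the narrowPeak column order, and its scale between libraries is not stated. The −log10 q-value is likewise the authors' deposited value. Each annotated peak lay in the α1ACT 1804 list and took its signal from there by chromosome and start. Distances to the TSS are the authors', and nearer-edge distances were computed here.

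Overlap meant at least 1 bp, and close to a TSS meant within 1000 bp. A gene's span is that of its transcript in the table. Protein-coding genes are those with a curated transcript in the RefSeq gene table of GRCr8, used for names, chromosomes and gene order. Of 14390 genes, 14269 matched it by gene ID, and all 6 members matched by symbol. Of 51 related symbols 50 matched, all but Vbp1. Members and lists were chosen with earlier results of these data known. Named genes were, by rule, all members, the leading 2 genes of each list and the genes within 200 kb of Tbcd. Genes next to Tbcb or Tbce, hosts of member peaks (Pepd, Grik4) and Tuba1c were named in addition, after their values were seen. Read depth is unknown and each group has 1 library, so no test was made between groups. Overlap counting was tested on simulated data. Alternatives changed the signal limit, TSS distance, overlap rule, merging of peaks and treatment of doubled loci. Python 3.11.15, pandas 2.3.3 and scipy 1.17.1 were used.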

Additional observations from a re-analysis of the deposited data

How the results depend on the processing

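Of the alternatives tried, 33 left a count within 1.5 times its reported value and 8 did not. The Tbcd site was shared by the M2 and 1804 lists of α1ACT cells and missing from those of empty-vector cells also when a shared site needed at least 50% of the peak to overlap, or allowed a gap of up to 500 bp. The number of cofactor genes with a peak close to the TSS, 3 as reported, was also 3 under 4 alternatives and was 2 within 500 bp, where Tbcc was lost. No alternative counted Tbcb by its minus-strand locus alone, which had no peak close to the TSS, so the number depends on the plus-strand locus. The 30 assigned peaks became 7 in the upper 10% by signal and 13 inside the gene spans. In the upper 10% by signal, the genes with a peak close to the TSS numbered 1 for alpha tubulins, 3 for beta tubulins, 2 for other tubulin and nucleation genes, 0 for prefoldin and 1 for CAP-Gly genes. For alpha tubulins the number was also 1 on the expected chromosome, a setting chosen after seeing the data, as were those on position and on the Tbcb copy. No paired analysis was possible because each group holds 1 library. Depth is unknown, so what a missing peak allows cannot be said beyond the listed signals.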

Other observations

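Some signals of the α1ACT 1804 list were repeated many times. Of the 30 peaks assigned to the cofactor genes, 16 had a signal that 100 or more annotated peaks had, and 5 had a signal that no other annotated peak had. The matching shares of all annotated peaks were not counted, so these numbers are not read as a feature of the cofactor genes. Of the annotated peaks, 3385 shared the signal of the last of the 3 intron 7 peaks of Tbcd and of the Grik4 intron 9 peak assigned to Tbcel, which rounds to 3.18. A neighbouring value that also rounds to 3.18 was shared by 3588 peaks, a pair assigned to Tbca and 1 assigned to Tbcel among them. The 5 with a signal of their own were the intron 13 site of Tbcd at 899, the peak at the Tbcd start at 13.2, the Tbcc peak at 7.70, a Tbca peak at 4.61 and the Tbcd intron 8 peak at 2.23, so they were found among high and low signals. Of the 30 assigned peaks, 6 had the highest −log10 q-value of the list, namely 3 of Tbcd and 1 each of Tbca, Tbcc and Tbcel. In the whole list 11673 of 161730 peaks had that value.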
